A study of Mus musculus with 15 samples.

Results

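The transcripts described here are 30 genes of cholesterol synthesis and sterol regulation in mouse brain, 18 of them enzymes of the pathway from acetyl-CoA to cholesterol, 7 regulators and 5 genes of sterol efflux and oxysterol metabolism. They were taken by symbol from the deposited table of normalized read counts, with the condition that a gene reached 10 in at least 3 of the 15 libraries, and 30 of 30 were found and passed, among 26595 genes in the table. The study sequenced brain RNA of 5-month-old C57Bl/6 males, from cerebral cortex in 8 libraries and from striatum in 7. The mice were wild type (WT) or carried SLC1a4 -/-, loss of both copies of Slc1a4, the gene for ASCT1, a carrier of neutral amino acids (KO). There were 4 libraries of WT cortex (replicates 5 to 8), 4 of KO cortex (1 to 4), 4 of WT striatum (5 to 8) and 3 of KO striatum (2 to 4). No other allele or treatment is given for any group, nor is the deleted stretch of the gene. Whether replicates are separate animals is not stated, so p-values measure the spread between these samples, which may be technical.

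Cholesterol in the brain is made locally, because lipoproteins of the blood do not cross the blood-brain barrier. Acetyl-CoA is condensed to mevalonate, mevalonate is turned into isoprenoid units, these are joined to squalene, squalene is closed to lanosterol, and lanosterol is trimmed to cholesterol. When sterol in the endoplasmic reticulum is low, the escort protein encoded by Scap carries the precursors of SREBP transcription factors to the Golgi, where they are cut and released to the nucleus to switch on the enzyme genes. Insig proteins hold the complex back when sterol is plentiful. Oxysterols activate liver X receptors, which switch on export genes such as Abca1 and Abcg1, and neurons dispose of cholesterol by turning it into 24S-hydroxycholesterol.

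The targeted gene matched the labels in both tissues. In KO cortex Slc1a4 stood at 249 to 308 normalized counts, against 1494 to 1797 in WT cortex, or 16.3% of the WT mean (two-sided exact permutation p = 0.029, the smallest p this design allows). In KO striatum it stood at 158 to 344 against 1237 to 1726, or 17.7% (two-sided exact permutation p = 0.029). Counted reads numbered 26791109 to 30276815 in cortex libraries and 22990233 to 25697792 in striatum libraries. The tissue labels matched their markers: 10 of 10 markers of striatal projection neurons were called higher in striatum, and 9 of 10 markers of cortical excitatory neurons were called lower, in either genotype. The dissections were not alike, however. The summed level of the 10 cortical excitatory markers was 3876 to 8995 in WT striatum and 7764 to 15907 in KO striatum. The summed level of 8 choroid plexus markers ran from 1310 to 18198 in WT striatum and from 2354 to 13998 in KO striatum, with WT replicate 5 and KO replicate 4 far above the others. KO striatum replicate 4 also had the highest sum of 6 thalamic and septal markers, 31489, followed by WT striatum replicate 8 with 18774.

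The promoters of the enzymes share short elements that were not used to choose the genes. RefSeq promoters (GRCm38.p6, 250 bases before to 50 after the annotated start) were available for 25 of the 30 genes, among them 15 enzymes. Motifs were searched on both strands, and the motifs were settled with their counts in view, so the counts are descriptions. The CCAAT box, the binding motif of NF-Y, a partner of SREBP at sterol-controlled promoters, was in 14 of 15 enzyme promoters, the exception being Acat2. It was in 6 of the 10 other members' promoters and in 37.4% of all 32851 promoters of the same length. The GC box GGGCGG, read by Sp1, was also in 14 of 15 enzyme promoters, all except Pmvk, in 8 of the 10 others and in 35.7% of all. A strict form of the sterol regulatory element, TCACNCCAC, was in 1 enzyme promoter, that of Hmgcs1, and in 1.24% of all promoters. The E-box CACGTG was in 3 of 15 enzyme promoters, 3 of 10 others and 7.15% of all, and a direct-repeat motif of the liver X receptor was in none of the 25 and in 0.0152% of all. None of these motifs is contained in another.

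The 150 bases before the annotated RefSeq start are shown for enzymes whose values carry the results below. The same stretch is shown for the export gene Abca1, which was higher in WT striatum. Gene positions given below come from another annotation, whose starts differ for several genes. By those positions the Tm7sf2 and Msmo1 stretches lie inside the gene, as do parts of the Idi1, Lss and Cyp51 stretches. Capitals mark TCACNCCAC or CCAAT, the latter read as ATTGG where it lies on the other strand.
Hmgcs1, chr13:119690201-119690350, plus strand: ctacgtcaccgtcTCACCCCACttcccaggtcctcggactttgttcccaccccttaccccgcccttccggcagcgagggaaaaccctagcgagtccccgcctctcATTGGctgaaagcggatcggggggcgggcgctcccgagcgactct
Mvk, chr5:114444119-114444268, plus strand: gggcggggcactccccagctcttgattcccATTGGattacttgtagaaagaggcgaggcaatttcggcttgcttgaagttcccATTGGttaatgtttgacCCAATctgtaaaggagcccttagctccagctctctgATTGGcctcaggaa
Idi1, chr13:8885456-8885605, plus strand: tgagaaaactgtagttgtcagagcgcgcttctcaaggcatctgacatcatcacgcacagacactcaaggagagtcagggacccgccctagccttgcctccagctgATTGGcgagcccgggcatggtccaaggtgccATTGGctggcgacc
Lss, chr10:76531455-76531604, plus strand: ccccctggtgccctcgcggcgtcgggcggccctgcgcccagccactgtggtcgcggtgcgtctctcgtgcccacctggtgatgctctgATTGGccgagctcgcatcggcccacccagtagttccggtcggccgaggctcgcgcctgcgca
Cyp51, chr5:4104698-4104847, minus strand: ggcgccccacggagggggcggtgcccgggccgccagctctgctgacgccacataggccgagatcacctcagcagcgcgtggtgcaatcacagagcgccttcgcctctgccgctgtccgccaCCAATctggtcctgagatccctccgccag
Tm7sf2, chr19:6067851-6068000, minus strand: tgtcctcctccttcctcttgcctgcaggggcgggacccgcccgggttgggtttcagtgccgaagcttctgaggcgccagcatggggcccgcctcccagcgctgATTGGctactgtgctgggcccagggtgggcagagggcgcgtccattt
Msmo1, chr8:64733579-64733728, minus strand: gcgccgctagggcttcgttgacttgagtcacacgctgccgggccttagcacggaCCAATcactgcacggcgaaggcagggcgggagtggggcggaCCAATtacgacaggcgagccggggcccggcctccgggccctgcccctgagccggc
Abca1, chr4:53159896-53160045, minus strand: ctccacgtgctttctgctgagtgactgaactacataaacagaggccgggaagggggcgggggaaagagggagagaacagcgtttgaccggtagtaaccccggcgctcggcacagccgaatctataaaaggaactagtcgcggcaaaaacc
In Hmgcs1 the TCACNCCAC match lies 137 bases before the RefSeq start and the CCAAT box 45 bases before it. Mvk has 4 CCAAT boxes within the stretch, Idi1 and Msmo1 have 2 each, and Tm7sf2, Cyp51 and Lss have 1 each. The Abca1 stretch has neither element. The CCAAT box does not follow the direction between the tissues, since Srebf1, Insig2 and Mylip, called higher in WT striatum, have it in their promoters.

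Transcript levels were compared between genes only after division by exon length, as normalized counts per kilobase (kb) of exon. By that scale Hmgcs1, the synthase that makes HMG-CoA, stood far above the other enzymes, at 1979 ± 98.9 (SD, n = 4) in WT cortex. Fdft1, the squalene synthase, followed at 576 ± 28.7. Idi1, the isomerase of isopentenyl diphosphate, stood at 432 ± 35.6 and Cyp51, the lanosterol demethylase, at 427 ± 26.1, neighbours whose difference was smaller than their SD. At the low end of the enzymes were Dhcr7, the last reductase of the pathway, at 117 ± 8.56, the lanosterol synthase Lss at 117 ± 10.5 and the sterol reductase Tm7sf2 at 102 ± 5.19. Dhcr7 and Lss did not differ beyond their SD either. Fdps, farnesyl diphosphate synthase, was lowest of all 30 genes in every group, at 21.6 ± 2.36 per kb in WT cortex.

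Among the regulators Srebf2, which encodes the SREBP that mainly drives cholesterol genes, was highest in WT cortex at 925 ± 38.1 per kb. Insig1 followed at 713 ± 88, while Srebf1, which encodes the SREBP that mainly drives fatty acid genes, stood at 262 ± 22.4. Apoe encodes the main apolipoprotein of the brain, a product chiefly of astrocytes. Its transcript was the most abundant of the 30 genes in all 4 groups. It stood at 11438 ± 1111 per kb in WT cortex and 14722 ± 617 in WT striatum. Cyp46a1, the neuronal enzyme that hydroxylates cholesterol at position 24, stood at 1560 ± 57.5 in WT cortex. The order was much the same in the 4 groups, with Apoe first, Tm7sf2 last but one and Fdps last in each of them, and Hmgcs1 followed by Cyp46a1 in the next places except in WT striatum, where Cyp46a1 at 1454 ± 171 and Hmgcs1 at 1339 ± 99.7 did not differ beyond their SD.

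**Figure D1:**
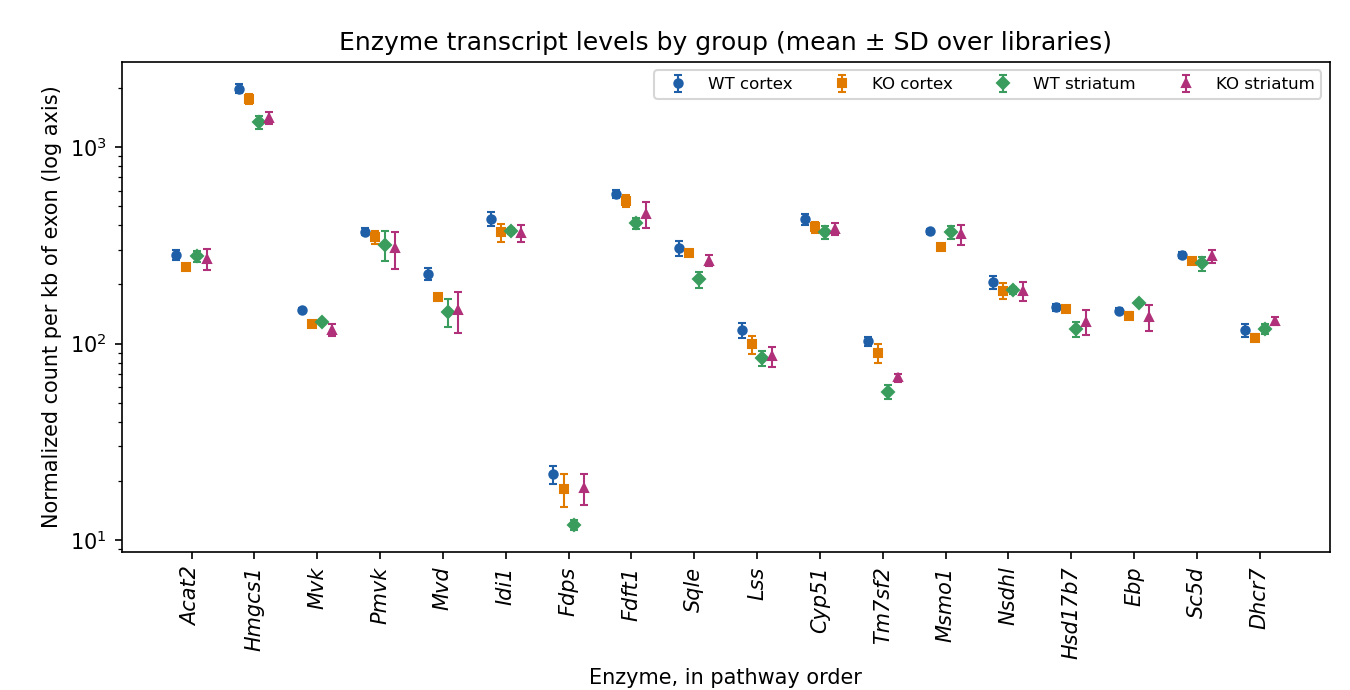
Normalized counts per kb of exon (log axis) of the 18 enzymes in pathway order, as mean ± SD over the 4 libraries of WT cortex, KO cortex and WT striatum and the 3 of KO striatum. Hmgcs1 stands at 1979 per kb in WT cortex and Fdps at 21.6, and for most enzymes the WT cortex point is the highest of the 4.

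Several of these genes share exon bases with a neighbour, so their counts may hold its reads or lack shared ones. For overlaps on opposite strands this depends on the strand setting of the counting, which is not given in the sources used here. Of the exon bases of Fdps, 26.7% are shared on the same strand with the protein-coding model Gm43738. Tm7sf2 shares 12.1% on the same strand with Vps51, and Fdft1 shares 18.3% with Ctsb on the opposite strand. Opposite-strand overlaps also touch Scap (13.2%), Hmgcs1 (12.1%), Idi1 (9.22%), Cyp51 (3.76%), Lss (3.53%) and Srebf1 (1.93%). How many reads of these genes came from a neighbour, or were left uncounted because 2 genes overlap, was not measured, so their levels, the low rank of Fdps among them, are uncertain.

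The first comparison asked how the tissues differ in mice with an intact Slc1a4. In WT mice 11 of the 18 enzyme transcripts were lower in striatum than in cortex and none was called higher. The export genes went the other way, with Abca1, Abcg1 and Apoe all higher in striatum. In this comparison 50.5% of the 17030 genes tested were called at an adjusted p below 0.05, 24.9% higher and 25.7% lower. Of the 30 genes, 21 were called, 6 higher and 15 lower, and 23 had an unadjusted p below 0.05, against 56.8% of all. The median log2 difference of the enzymes was -0.22, against 0.01 over all genes tested, and 16 of 18 lay below 0, against 49.5% of all genes. Every WT striatum library lay below every WT cortex library for 14 members, against 24.3% of all genes, and above for 6 members, against 23% of all. In bulk tissue, fewer cells of a type and less RNA per cell cannot be told apart. All 10 oligodendrocyte markers were called higher in striatum in these libraries (median log2 difference 1.41, summed level 213589 to 295041 against 55707 to 118335), and 6 of 8 choroid plexus markers were called higher. The part of these cell types in the differences below was not tested.

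At the head of the pathway Hmgcs1 (ENSMUSG00000093930, GRCm38 chr13:119690379-119708260, plus strand) read 9044, 9247, 9580 and 8496 normalized counts in the 4 WT cortex libraries and 5811, 6720, 5750 and 6321 in the 4 of WT striatum. The groups were well apart, the highest striatum library lying below the lowest of cortex. The log2 difference, taken on normalized count plus 1 as for every difference below, was -0.57 (SE 0.07, adjusted p = 9e-06), which put striatum at 67.6% of the cortex level. Of the other genes of this step, Mvd, the decarboxylase that ends the mevalonate steps, was lower by a log2 difference of -0.65 (adjusted p = 0.0014) and Mvk, mevalonate kinase, by -0.20 (adjusted p = 0.013). Acat2, the cytosolic thiolase that starts the pathway, showed no detectable difference at -0.03 (SE 0.08, adjusted p = 0.8), and Pmvk, phosphomevalonate kinase, stood at -0.23 (SE 0.12, adjusted p = 0.14).

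All 3 enzymes between isopentenyl diphosphate and squalene were lower in WT striatum. Fdft1 (chr14:63145150-63179578, minus strand) read 2338, 2609, 2367 and 2426 in WT cortex and 1712, 1851, 1578 and 1786 in WT striatum. No striatum library reached the lowest cortex library, and the log2 difference was -0.49 (SE 0.08, adjusted p = 0.00019). Fdps (chr3:89093588-89101959, minus strand) had few reads, with 92.3, 105, 84.1 and 83.2 in WT cortex and 50.04, 50.8, 47.1 and 54.1 in WT striatum. The groups did not overlap, and the log2 difference was -0.83 (SE 0.16, adjusted p = 0.00056). Idi1 stood at -0.21 (adjusted p = 0.049), a call that was lost in 11 of 15 fits with 1 library left out and kept without WT cortex replicate 6, KO cortex replicate 2 or KO striatum replicate 3 or 4.

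Both enzymes that turn squalene into lanosterol were lower as well. Sqle (chr15:59315077-59331192, plus strand), the squalene epoxidase and a rate-limiting enzyme of the pathway, read 1648, 1914, 1607 and 1606 in WT cortex and 1110, 1226, 1062 and 1309 in WT striatum. Cortex replicate 6 stood above the other 3 cortex libraries, and the groups were apart with or without it. The log2 difference was -0.53 (SE 0.08, adjusted p = 4.9e-05). Lss stood at -0.47 (SE 0.09, adjusted p = 0.00082).

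Among the 8 enzymes after lanosterol the picture was mixed, with 3 called lower and 5 not called. Tm7sf2 (chr19:6062821-6068373, minus strand), a reductase of the sterol ring, had the smallest p of the 30 genes. It read 461, 465, 462 and 417 in WT cortex and 243, 226, 274 and 258 in WT striatum. Striatum held 55.4% of the cortex level, with no overlap and a log2 difference of -0.85 (SE 0.09, adjusted p = 2.2e-06). Hsd17b7, the ketoreductase of the demethylation complex, stood at -0.37 (adjusted p = 0.0026) and Cyp51 at -0.22 (adjusted p = 0.018), which was not called without WT cortex replicate 7 or WT striatum replicate 5. Msmo1, the methylsterol oxidase, was at 2190 to 2335 in WT cortex and 2025 to 2419 in WT striatum, overlapping ranges with a log2 difference of -0.02 (SE 0.07, adjusted p = 0.87). Dhcr7 stood at 0.02 (adjusted p = 0.83), Ebp, the sterol isomerase, at 0.12 (adjusted p = 0.22), Nsdhl, the decarboxylating dehydrogenase, at -0.14 (adjusted p = 0.19) and Sc5d, the desaturase, at -0.15 (adjusted p = 0.075). With libraries scaled to total reads in place of the deposited factors, the differences of Acat2 and Msmo1 changed sign, both being close to 0.

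The 2 SREBP genes moved apart between the tissues. Srebf2 (chr15:82147181-82205379, plus strand) read 6507, 7004, 6704 and 6375 in WT cortex and 5007, 5300, 5577 and 4556 in WT striatum. All striatum libraries were below all cortex libraries, with a log2 difference of -0.38 (SE 0.07, adjusted p = 0.00029). Srebf1 (chr11:60199089-60222581, minus strand) read 1488, 1652, 1400 and 1371 in WT cortex and 2466, 2321, 2355 and 2214 in WT striatum. Here every striatum library was above every cortex library, with a log2 difference of 0.66 (SE 0.09, adjusted p = 4.2e-05).

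Insig2, the sterol sensor that is not itself a strong SREBP target, read 1168, 1109, 1126 and 1212 in WT cortex and 1512, 1401, 1547 and 1410 in WT striatum, with a log2 difference of 0.35 (SE 0.06, adjusted p = 0.00045). It was higher in every striatum library, whereas Insig1, the family member that SREBP switches on, stood at -0.21 (SE 0.09, adjusted p = 0.069). Stard4, a carrier that moves cholesterol between membranes and an SREBP target, read 1231, 1402, 1176 and 1267 in WT cortex and 801, 979, 836 and 980 in WT striatum. Its groups did not overlap, and its log2 difference was -0.50 (SE 0.09, adjusted p = 0.00037). Scap stood at -0.13 (adjusted p = 0.031) and Mylip, a liver X receptor target that sends lipoprotein receptors to degradation, at 0.19 (adjusted p = 0.049). These were the weakest calls: Scap was not called without WT cortex replicate 5, 6 or 7 or WT striatum replicate 6 or 8, and Mylip was called in 2 of 15 fits with 1 library left out, those without WT cortex replicate 7 or KO striatum replicate 4.

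Abca1 (chr4:53030787-53159895, minus strand), the exporter that loads cholesterol onto apolipoproteins, read 1328, 1383, 1230 and 1384 in WT cortex and 2160, 2395, 2346 and 2412 in WT striatum. Striatum was at 175% of cortex with no overlap, a log2 difference of 0.81 (SE 0.09, adjusted p = 4.1e-06). Abcg1 (chr17:31057675-31117988, plus strand), a second exporter, read 1728, 1643, 1525 and 2000 in WT cortex and 2627, 2559, 2668 and 2593 in WT striatum, a log2 difference of 0.61 (SE 0.07, adjusted p = 6.4e-06). Apoe (chr7:19696109-19699188, minus strand) read 24345, 24468, 27411 and 21597 against 31889, 30064, 30841 and 33105, a log2 difference of 0.37 (SE 0.08, adjusted p = 0.0022). The 3 export genes thus had every WT striatum library above every WT cortex library.

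Nr1h2, which encodes liver X receptor beta, went against its targets. It read 1256, 1325, 1378 and 1278 in WT cortex and 1022, 909, 1033 and 1007 in WT striatum, with a log2 difference of -0.40 (SE 0.07, adjusted p = 0.00032). Cyp46a1 overlapped, with 5035, 5332, 5232 and 4914 in WT cortex and 5525, 4328, 4900 and 4364 in WT striatum, and was not called at -0.11 (SE 0.08, adjusted p = 0.26).

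**Figure D2:**
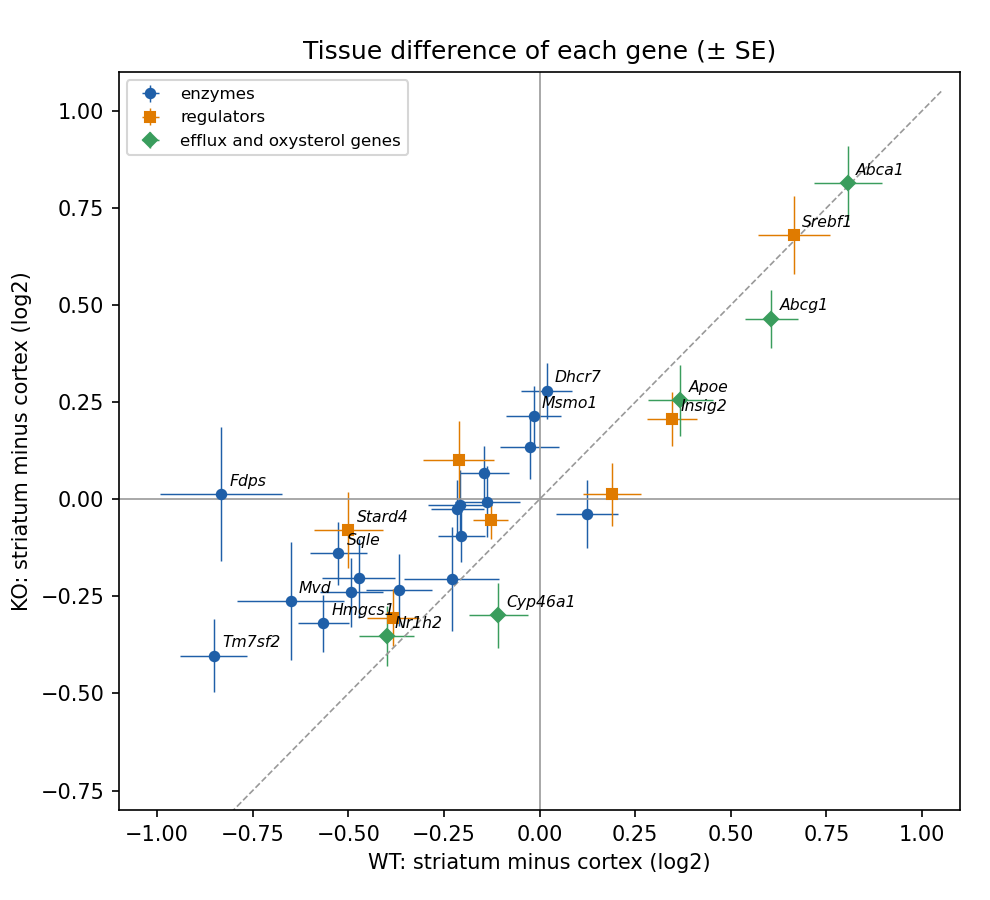
Log2 difference of striatum from cortex (± SE) in WT and in KO mice for the 30 genes, which are enzymes, regulators, and efflux and oxysterol genes. The enzyme median is -0.22 in WT and -0.07 in KO, and Srebf1, Abca1, Abcg1 and Apoe lie above 0 in both genotypes.

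The same comparison was made between the KO tissues. Its differences come from KO libraries, while its SE and p share a variance estimated over all 15 libraries, WT included. Here fewer genes were called, 37.9% of all tested (18.4% higher, 19.5% lower), with 3 libraries of striatum in place of 4. Of the 30 genes 13 were called, 7 higher and 6 lower, and 14 had an unadjusted p below 0.05, against 46.8% of all. Every KO striatum library lay below every KO cortex library for 7 members, against 21.4% of all genes, and above for 6, against 20.1%. Among the 18 enzymes, Hmgcs1, Fdft1 and Tm7sf2 were called lower, and Dhcr7 and Msmo1 were called higher. The enzyme median was -0.07, against 0.00 over all genes, and 13 of 18 lay below 0, against 49.7% of all genes. Scaling to total reads moved the share of higher genes among all calls from 48.5% to 61.0% in this comparison, and moved the enzyme median to 0.01. Under that scaling the differences of Idi1, Cyp51, Nsdhl, Ebp and Scap, none of them called, changed sign. A total of 10 genes was called in the same direction in both genotypes, which is 47.6% of the 21 called in WT and 76.9% of the 13 called in KO. They were Hmgcs1, Fdft1, Tm7sf2, Srebf2 and Nr1h2, all lower in striatum, and Srebf1, Insig2, Abca1, Abcg1 and Apoe, all higher. The share of all tested genes called in both genotypes was not counted. Whether this overlap is larger than that of other genes was therefore not tested.

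Hmgcs1 read 8088, 7492, 8661 and 8026 in KO cortex and 6570, 5988 and 6838 in KO striatum. The groups did not overlap, and the log2 difference was -0.32 (SE 0.07, adjusted p = 0.0032). Tm7sf2 read 451, 351, 396 and 375 in KO cortex and 300, 281 and 308 in KO striatum, again without overlap, at -0.40 (SE 0.09, adjusted p = 0.0038). Fdft1 read 2321, 2175, 2435 and 2077 against 2249, 1767 and 1738, where replicate 2 of striatum lay within the cortex range, at -0.24 (adjusted p = 0.046). That call was kept in 3 of 15 fits with 1 library left out, those without KO cortex replicate 4, WT striatum replicate 7 or KO striatum replicate 2.

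Dhcr7 read 600, 606, 644 and 648 in KO cortex and 764, 721 and 789 in KO striatum, so that every striatum library was the higher, with a log2 difference of 0.28 (SE 0.07, adjusted p = 0.0069). Msmo1 read 1897, 1806, 1915 and 1967 against 2319, 1911 and 2396. Replicate 3 of striatum fell within the cortex range, and the log2 difference of 0.21 (SE 0.08, adjusted p = 0.04) was no longer called in 7 of 15 fits with 1 library left out, which were those without WT cortex replicate 6, any of the 4 KO cortex libraries, or KO striatum replicate 2 or 4. Sqle, Fdps, Lss, Mvd, Mvk, Idi1, Cyp51 and Hsd17b7, called lower in the WT striatum, were not called here, with log2 differences of -0.26 (Mvd) to 0.01 (Fdps).

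Of the 7 regulators 3 were called between the KO tissues. Srebf2 read 6562, 6505, 6871 and 6649 in KO cortex and 5941, 5246 and 4994 in KO striatum, at -0.30 (SE 0.07, adjusted p = 0.0044). Srebf1 read 1556, 1689, 1345 and 1447 against 2532, 2020 and 2736, at 0.68 (SE 0.10, adjusted p = 0.00013). Both SREBP genes thus had groups that did not overlap, in opposite directions. Insig2 read 1140, 1153, 1178 and 1202 against 1221, 1320 and 1518, at 0.21 (SE 0.07, adjusted p = 0.03). Without KO striatum replicate 4 its difference was 0.12 (adjusted p = 0.16), and it was not called either without KO cortex replicate 1, 2 or 3. The other 4 regulators were not called here. Stard4 stood at -0.08 (SE 0.10, adjusted p = 0.55), against -0.50 in WT, Insig1 at 0.10 (SE 0.10, adjusted p = 0.46), against -0.21, Mylip at 0.01 (SE 0.08, adjusted p = 0.92), against 0.19, and Scap at -0.05 (SE 0.05, adjusted p = 0.44), against -0.13.

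Abca1 read 1450, 1816, 1383 and 1513 in KO cortex and 2976, 2343 and 2807 in KO striatum, at 0.81 (SE 0.09, adjusted p = 1.6e-05). Abcg1 read 1677, 1705, 1799 and 1662 against 2391, 2228 and 2468, at 0.46 (SE 0.07, adjusted p = 0.00025). Apoe read 22916, 21373, 20823 and 22688 against 26844, 22981 and 29072, at 0.26 (SE 0.09, adjusted p = 0.039). For all 3 the lowest striatum library exceeded the highest cortex library, although for Apoe by little, and the Apoe call was lost without WT cortex replicate 5 or 6, any KO cortex library, or KO striatum replicate 2 or 4. Nr1h2 read 1273, 1212, 1239 and 1296 against 901, 926 and 1138, at -0.35 (SE 0.08, adjusted p = 0.0024). Cyp46a1 read 5070, 4410, 4969 and 4524 against 4146, 3744 and 3673, at -0.30 (SE 0.08, adjusted p = 0.011), again without overlap. In these libraries 10 of 10 oligodendrocyte markers were called higher in striatum (median log2 difference 1.20), and the part of oligodendrocytes in these differences was not tested.

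The next comparison asked what loss of Slc1a4 goes with in cortex. No member was called, where 0.00587% of all genes (1 gene) were, and 10 of the 30 had an unadjusted p below 0.05, against 2.51% of all genes. The 18 enzyme differences were all below 0, against 49.5% of all genes, with a median of -0.16 and a range of -0.38 (Mvd) to -0.02 (Hsd17b7). The sizes were thus small, with KO at 76.8% of WT for Mvd and 98.7% for Hsd17b7. By step, the medians were -0.21 for the 5 enzymes up to mevalonate diphosphate decarboxylation, -0.24 for the 3 up to squalene, -0.15 for the 2 up to lanosterol and -0.13 for the 8 after it. For 6 members every KO library lay below every WT library (Acat2, Mvk, Mvd, Idi1, Msmo1 and Insig1), that is 20% of the 30 against 2.28% of all genes. No member had every KO library above every WT library, against 1.73% of all genes. Count tests on the recovered reads with edgeR, DESeq2 and voom also called 0 members.

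Mvk (chr5:114444269-114460591, plus strand) had the smallest p. It read 403, 395, 402 and 392 in WT cortex and 338, 338, 333 and 332 in KO cortex, 2 narrow groups with a clear gap. The log2 difference was -0.25 (SE 0.06, adjusted p = 1). Msmo1 (chr8:64718139-64733792, minus strand) read 2190, 2335, 2310 and 2303 in WT and 1897, 1806, 1915 and 1967 in KO, at -0.27 (SE 0.07, adjusted p = 1). Mvd (chr8:122433601-122443422, minus strand) read 398, 465, 411 and 407 in WT and 334, 323, 320 and 312 in KO, at -0.38 (SE 0.14, adjusted p = 1). Each of these genes had its highest KO library below its lowest WT library.

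Acat2 (chr17:12942890-12960747, minus strand) read 748, 765, 684 and 690 in WT and 653, 620, 629 and 595 in KO, at -0.21 (SE 0.08, adjusted p = 1). Idi1 (chr13:8885501-8892451, plus strand) read 1459, 1407, 1693 and 1495 in WT and 1314, 1091, 1365 and 1380 in KO, at -0.24 (SE 0.08, adjusted p = 1). Its gap was small, 1380 in KO replicate 4 against 1407 in WT replicate 6. Hmgcs1 values overlapped, KO replicate 3 with 8661 lying above WT replicate 8 with 8496, and its difference was -0.17 (SE 0.07, adjusted p = 1).

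Of the regulators 3 of 7 lay below 0 in cortex, and of the efflux and oxysterol genes 4 of 5. Srebf2 differed by 0.00 (SE 0.07), Scap by -0.05 (SE 0.05), Srebf1 by 0.03 (SE 0.09) and Insig2 by 0.02 (SE 0.06), all with an adjusted p of 1. Insig1 read 2027, 2559, 2280 and 1960 in WT and 1949, 1821, 1936 and 1958 in KO, groups that only just failed to overlap, at -0.20 (SE 0.09). Abca1 was at 0.20 (SE 0.09) and Mylip at 0.17 (SE 0.08), both with an unadjusted p below 0.05 and an adjusted p of 1. Apoe stood at -0.15 (SE 0.08), Cyp46a1 at -0.11 (SE 0.08), Stard4 at -0.12 (SE 0.09), Nr1h2 at -0.06 (SE 0.07) and Abcg1 at 0.00 (SE 0.07).

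**Figure D3:**
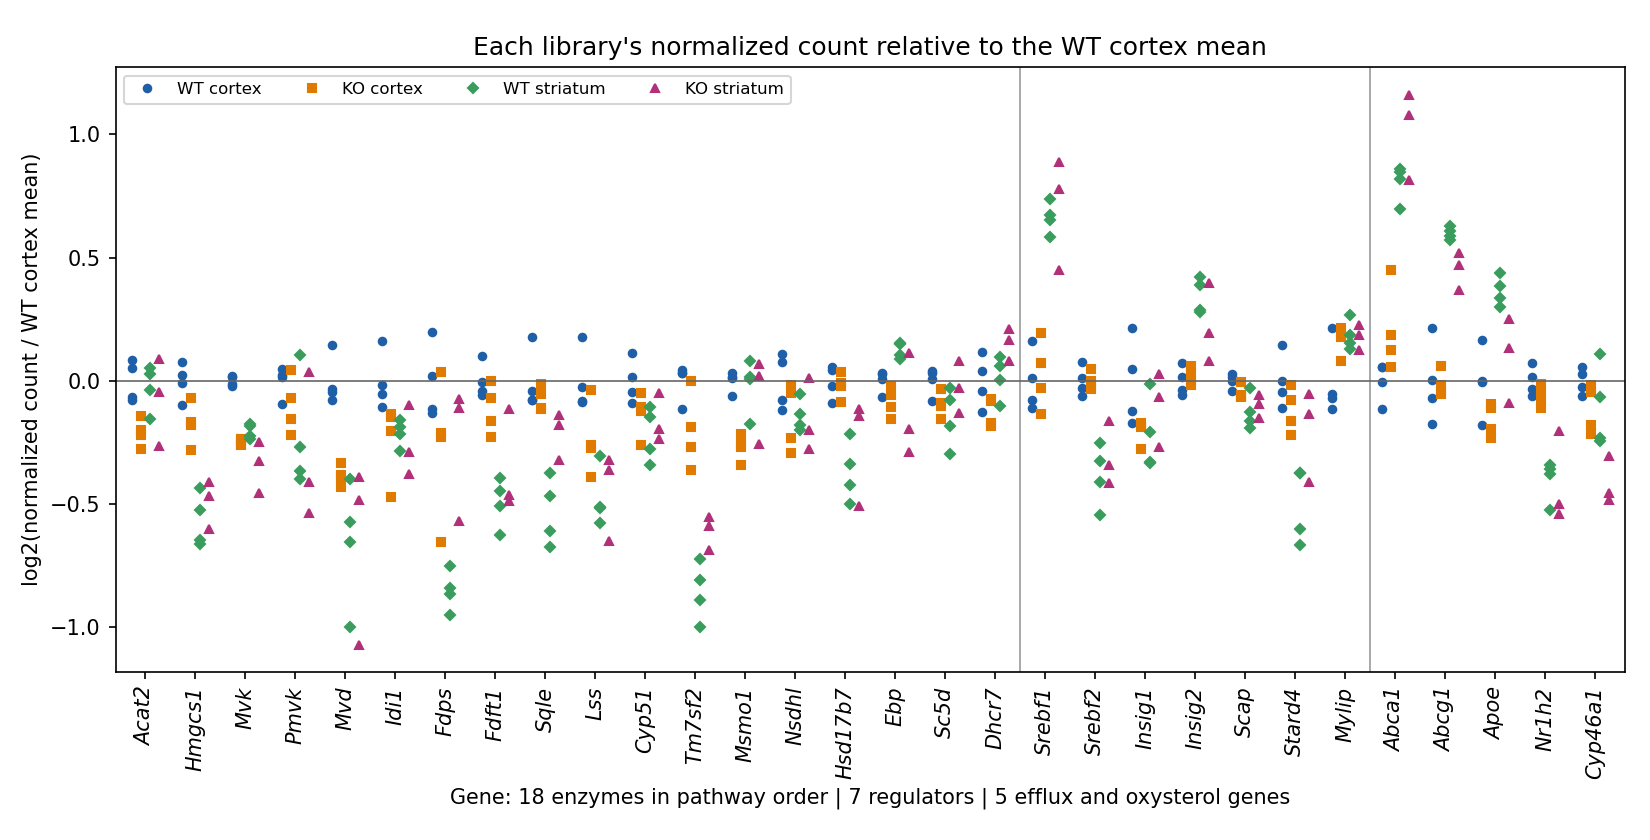
Log2 level of each of the 30 genes in each of the 15 libraries, relative to the WT cortex mean of that gene. Counted against the mean of all cortex libraries, WT and KO, which is not the plotted reference, 18 enzymes are below it in KO cortex replicate 2. By the same count 0 are below it in WT cortex replicate 6.

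A score per library, the median over the 18 enzymes of the log2 deviation from each enzyme's mean in the tissue, showed how evenly the libraries took part. WT cortex scores were 0.07, 0.15, 0.09 and 0.04 in replicates 5 to 8, and KO cortex scores were -0.02, -0.13, -0.06 and -0.09 in replicates 1 to 4. The enzymes below the cortex mean numbered 10, 18, 13 and 17 of 18 in KO replicates 1 to 4. In WT replicates 5 to 8 they numbered 5, 0, 3 and 7 of 18. The summed enzyme level was 26644 ± 936 (SD, n = 4) in WT cortex and 23783 ± 1001 (SD, n = 4) in KO cortex. Between these groups 0 markers of any of the 8 cell types were called. All 8 choroid plexus markers lay above 0 in KO cortex (summed level 404 to 1172, against 245 to 457 in WT), and all 10 striatal projection markers lay below 0 (7149 to 12359, against 7099 to 19682). Astrocyte markers, 7 of 10 of them below 0 with a median of -0.11, summed to 156803 to 175899 in KO and 154833 to 194845 in WT. Oligodendrocyte markers had a median of -0.01. The part of these cells in the enzyme values was not tested.

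**Figure D4:**
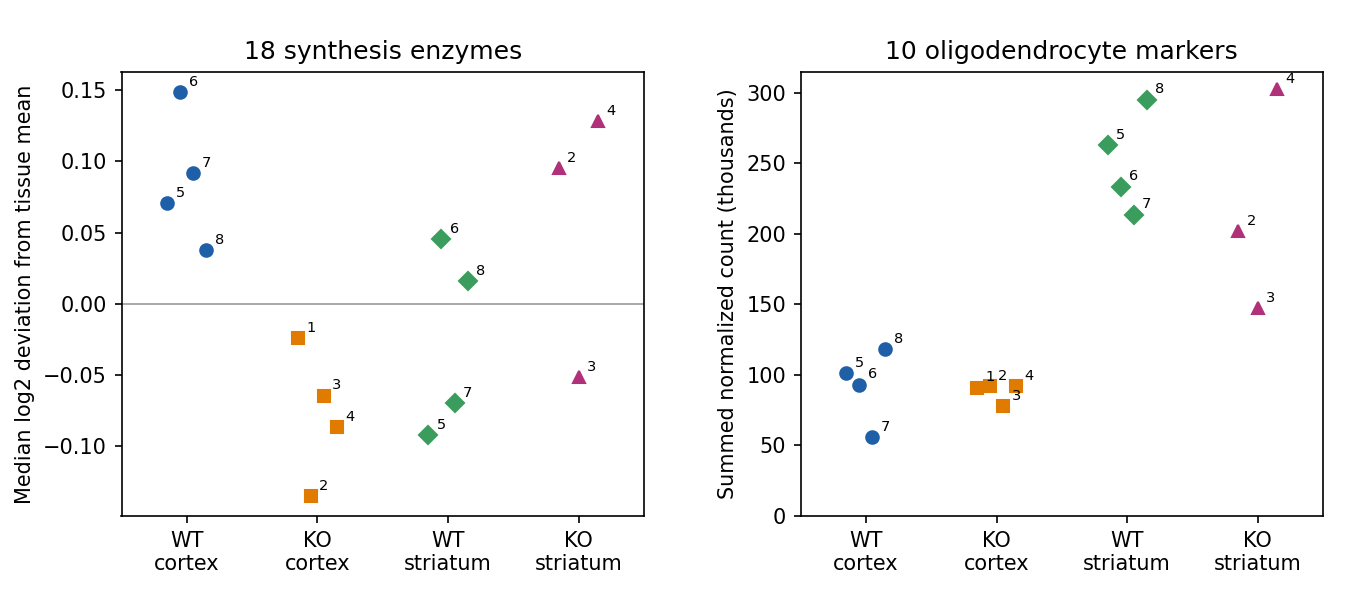
Enzyme score of each library, the median log2 deviation of the 18 enzymes from their tissue means, by group. KO cortex libraries lie at -0.13 to -0.02 below the WT cortex libraries at 0.04 to 0.15, while the striatum groups overlap.

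In striatum the enzymes did not go one way with loss of Slc1a4. No member was called, against 0.0763% of all genes (0.0705% higher, 0.00587% lower), and 8 of 30 had an unadjusted p below 0.05, against 15.3% of all genes. Of the 18 enzymes 7 were below 0 and 11 above, with a median of 0.05, against 48.3% of all genes below 0. With total-read scaling 3 of 18 were below 0, the signs of Acat2, Idi1, Msmo1, Nsdhl, Mylip and Nr1h2 being turned. Enzyme scores ran from -0.09 to 0.05 in WT striatum and from -0.05 to 0.13 in KO striatum. Every KO library lay below every WT library for 4 members (Mvk, Abcg1, Apoe and Cyp46a1), or 13.3% of the 30 against 4.12% of all genes, and above for 3 members (Fdps, Sqle and Tm7sf2), or 10% against 3.96%.

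The values at the smallest p were as follows. Sqle read 1110, 1226, 1062 and 1309 in WT striatum and 1540, 1356 and 1497 in KO striatum, so that every KO library was the higher, at 0.32 (SE 0.08, adjusted p = 0.17). Fdps read 50.04, 50.8, 47.1 and 54.1 in WT and 84.3, 86.6 and 61.4 in KO, at 0.59 (SE 0.17, adjusted p = 0.18). KO replicate 4 was the lowest of the 3 and still above WT. Ebp (chrX:8185329-8193512, minus strand) read 377, 378, 366 and 361 in WT and 297, 279 and 367 in KO, at -0.25 (SE 0.09, adjusted p = 0.23), with KO replicate 4 inside the WT range.

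Cyp46a1 (chr12:108334381-108362234, plus strand) read 5525, 4328, 4900 and 4364 in WT striatum and 4146, 3744 and 3673 in KO striatum, at -0.31 (SE 0.08, adjusted p = 0.17). Apoe read 31889, 30064, 30841 and 33105 in WT and 26844, 22981 and 29072 in KO, at -0.27 (SE 0.09, adjusted p = 0.22). Both were lower in each KO library than in any WT library. Stard4 read 801, 979, 836 and 980 in WT and 1223, 956 and 1157 in KO, at 0.30 (SE 0.10, adjusted p = 0.21), where KO replicate 3 lay among the WT values.

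Which of these genes passed the test depended on the libraries and the tool. Without KO striatum replicate 4, Fdps (0.75, adjusted p = 0.041) and Ebp (-0.36, adjusted p = 0.026) were called. Without WT striatum replicate 8, Sqle was called (0.37, adjusted p = 0.044), and DESeq2 on all libraries called Sqle (adjusted p = 0.03) and Cyp46a1 (adjusted p = 0.039). Over all alternatives the adjusted p of Sqle ran from 0.03 to 0.68, that of Fdps from 0.038 to 0.68, that of Ebp from 0.025 to 0.68 and that of Cyp46a1 from 0.039 to 0.68. Markers of other cells moved with these groups: 10 of 10 striatal projection markers lay below 0 in KO striatum (median -0.83, summed level 41708 to 96425, against 82930 to 185530 in WT), and 9 of 10 cortical excitatory markers lay above 0 (median 1.28), 1 of them called. All 10 oligodendrocyte markers were below 0 (median -0.26). So were 8 of 10 astrocyte markers (median -0.12), 5 of 6 microglia markers (median -0.19) and 2 of 5 endothelial markers (median 0.02). The part of these cells in the gene values was not tested.

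**Figure D5:**
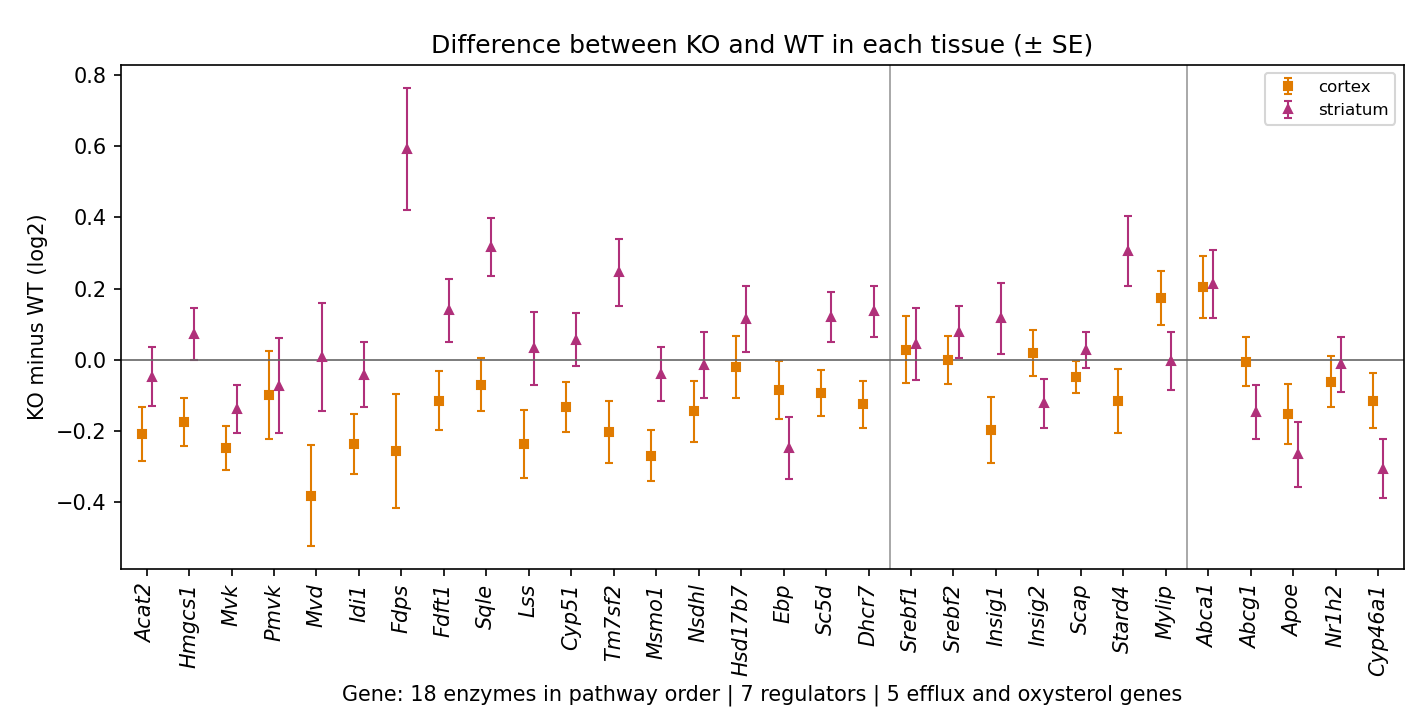
Log2 difference of KO from WT (± SE) for the 30 genes in cortex and in striatum. In cortex the 18 enzymes lie between -0.38 and -0.02, and in striatum between -0.25 (Ebp) and 0.59 (Fdps), and none of the 60 differences passed the test.

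The difference between the KO effects, striatum minus cortex, was then tested by itself. No member was called by limma, where 0.00587% of all genes were, nor by edgeR or DESeq2, while 9 of 30 had an unadjusted limma p below 0.05, against 4.9% of all genes. The enzyme difference lay above 0 for 17 of 18, Ebp being the exception, with a median of 0.22, against 50.2% of all genes below 0. Cell markers moved in this contrast too. Of the cortical excitatory markers 9 of 10 lay above 0 (median 1.27), and of the striatal projection markers 9 of 10 lay below 0 (median -0.41). All 10 oligodendrocyte markers lay below 0 (median -0.24), and 0 markers of these lists were called. The part of these cells in the enzyme values was not tested. Fdps stood at 0.85 (SE 0.23), Tm7sf2 at 0.45 (SE 0.13), Stard4 at 0.42 (SE 0.13), Sqle at 0.39 (SE 0.11), Dhcr7 at 0.26 (SE 0.10) and Hmgcs1 at 0.25 (SE 0.10), each with an adjusted p of 0.96. The members therefore were not shown to respond differently in the 2 tissues. The same values also give the difference between the tissue contrasts in KO and in WT, so the smaller number of enzymes called in KO mice was not shown to differ from WT for any single gene.

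Of the other genes of lipid metabolism, none was called between KO and WT in either tissue. They were 13 SREBP targets of fatty acid synthesis, 20 genes of sterol transport, esterification and oxysterols, and 11 genes of the isoprenoid branches that leave the pathway at farnesyl diphosphate. Between the WT tissues, where 24.9% of all genes were called higher and 25.7% lower, the fatty acid list had 5 of 13 higher in striatum and 3 lower, with a median of 0.12. Elovl5, a fatty acid elongase, stood at 0.82 (adjusted p = 1.7e-06), Scd2, a desaturase, at 0.72 (adjusted p = 2.1e-05) and Acly, which supplies cytosolic acetyl-CoA, at 0.71 (adjusted p = 9.2e-08). The 3 lower genes were Aacs, which makes acetoacetyl-CoA, at -0.73 (adjusted p = 2.4e-05), Acss2, which makes acetyl-CoA from acetate, at -0.40 (adjusted p = 0.0048) and Acaca, the carboxylase that makes malonyl-CoA, at -0.32 (adjusted p = 0.028). The list thus had members on either side.

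The transport list had 9 of 20 higher and 5 lower in WT striatum, beside the same 24.9% and 25.7% of all genes. Vldlr, a receptor for Apoe-bearing lipoproteins, stood at 0.58 (adjusted p = 3.2e-06), while Lrp8, another such receptor, stood at -0.91 (adjusted p = 3e-05) and Gramd1b, a carrier of sterol from the plasma membrane, at -0.50 (adjusted p = 0.0002). The isoprenoid branches had 4 of 11 higher and 4 lower, with Nus1 and Dhdds, the 2 subunits of the dolichol-making enzyme, on opposite sides at 0.59 (adjusted p = 2.8e-07) and -0.32 (adjusted p = 6.8e-05). In KO mice the corresponding counts, higher and lower, were 5 and 2 of 13, 7 and 3 of 20, and 2 and 3 of 11, where 18.4% of all genes were called higher and 19.5% lower.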

How the data were processed

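RNA was sequenced with 75 bp single-end reads from 800 ng of total RNA per library, per the labels. The authors deposited a table of normalized signal, in which the read count of each gene was divided by a factor of its library. The submitters' processing notes list the build GRCm38 and, with no role or order, DESeq2 1.12.4, HTSeq 0.6.0, TopHat2 2.1.1, cutadapt 1.1 and FastQC 0.11.5. The strand setting and annotation release are not given in the sources used here. After division by the step of each column, 100% of values lay within 0.001 of a whole read, so counts could be recovered for the count tests. Replicates of a group differed by a mean chi-square per gene of 7.15 to 77, over genes with at least 20 reads in the pair, so none was a repeat of another.

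The normalized values were raised by a pseudocount of 1, put on the log2 scale and fitted with limma 3.58.1 in R 4.3.3. The fit had 4 group means over all 15 libraries, 11 residual degrees of freedom and a trend of the variance. Genes with a value of at least 10 in at least 3 libraries entered (17030), and a gene was called at a Benjamini-Hochberg adjusted p below 0.05 over all of them. The test was checked on simulated data. The members and lists were chosen with earlier results of these data known. In each comparison the called members with the smallest p, up to 12, were described in full, or the 6 with the smallest p where fewer than 5 were called. For 44 further pathway genes in 3 lists, counts and up to 3 called genes were given. Gene positions and exon lengths are those of the GRCm38 annotation, and promoters those of RefSeq. As alternatives, the pseudocount, the filter and the scaling were changed, and voom, DESeq2 1.42.0 and edgeR 4.0.16 were run on recovered reads. Others were library weights, robust variances, only the libraries compared, the replicate number as a block, removal of length and GC trends, and libraries left out. Figures were drawn with matplotlib 3.10.9.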

Additional observations from a re-analysis of the deposited data

Results flagged for a closer look

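Of 90 groups of 4 libraries examined over the 30 genes, 4 held a library set apart from the other 3 by a gap that takes up most of the group's range, and chance alone gives about 1 in 20 groups. Sqle was at 1914 in WT cortex replicate 6, against 1606 to 1648 in the others. Tm7sf2 was at 417 in WT cortex replicate 8, against 461 to 465. In KO cortex replicate 2, Insig1 was at 1821, against 1936 to 1958, and Scap was at 2618, against 2507 to 2522. That library also had all 18 enzymes below their cortex mean.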

How the results depend on the processing

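All 15 libraries entered, and each was left out in turn. In cortex, 0 members were called between KO and WT under every alternative, and the enzyme median ran from -0.20 to -0.13. In striatum the count of called members was 0 and became 2 with DESeq2, 1 without the choroid-rich libraries (WT replicate 5, KO replicate 4), 3 without those rich in thalamic and septal markers (WT replicate 8, KO replicate 4), and 0 to 2 with single libraries left out. Between the WT tissues the enzyme median of -0.22 became -0.31 with length and GC trends removed, -0.30 without the libraries rich in thalamic and septal markers, and -0.30 to -0.20 with single libraries left out. The number of members called there stayed between 18 and 22. Between the KO tissues 9 to 13 members were called with single libraries left out. For the interaction 0 were called throughout. Slc1a4 in KO striatum was 15.3% to 21.3% of WT with single libraries left out (exact permutation p = 0.067 to 0.1, since smaller groups allow no smaller p), and in cortex 15.4% to 16.9%. Of 1284 refits of 42 named differences, 37 lost a call, 9 gained one and 0 reversed. Among these named differences, which are those with the smallest p in each comparison, the lost calls were all between the KO tissues (Msmo1 and Apoe 13 each, Insig2 10, Cyp46a1 1). Calls outside them were lost too when single libraries were left out. Between the WT tissues Mylip was kept in 2 of 15 such fits, Idi1 in 4, Scap in 10 and Cyp51 in 13. Mvk, Mvd, Lss, Hsd17b7 and Apoe were kept there in all 15. Between the KO tissues Fdft1 was kept in 3 of 15. The cause of these changes was not tested.

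Whether same-numbered cortex and striatum libraries come from the same animal is not stated. Their deviations correlated at 0.00 to 0.14 over 7 pairs, and 6 of 7 correlated best with their own number. These values do not settle whether the pairs share an animal. With the replicate block 8 members were called between the KO tissues in place of 13, and 20 in place of 21 between the WT tissues. The KO and WT groups share no number.

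Counting noise does not limit most members, but Fdps, at 47.1 to 105 normalized counts, is the least precise. Between KO and WT, differences of several times their SE were not called after adjustment over all genes, such as Mvk in cortex (-0.25, SE 0.06) and Fdps in striatum (0.59, SE 0.17).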

Other observations

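A gene outside the members, chosen after its values were seen, was Ch25h, which encodes cholesterol 25-hydroxylase, an interferon-induced enzyme that makes an oxysterol able to hold SREBP back. It read 9.42, 6.66, 9.14 and 3.01 in WT cortex and 9.69, 21.5, 46.5 and 15.9 in KO cortex. Every KO library lay above every WT library, as for 1.73% of all genes, but the gap was only 9.42 to 9.69. In striatum it read 10.2, 4.06, 6.73 and 5.30 in WT and 29.6, 37.6 and 19.1 in KO. Here too every KO library was the higher, as for 3.96% of all genes. The level of 10 asked by the filter was reached mostly in KO libraries, so the lack of overlap is a description only. In cortex the log2 difference was 1.47 (SE 0.44), with an adjusted p of 1 by limma. That in striatum was 1.98 (SE 0.48), with 0.14. Neither passed the test, and the reads are few in all libraries.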
